A study of Mus musculus with 4 samples.

Results

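Fos, Fosb, Fosl2, Atf3, Btg2 and Egr1 are immediate early genes, and their mRNA was described here in 4 mouse hearts that had all received a sham operation. They are 6 of 35299 loci in the deposited table. Atf3, Fosb, Fosl2 and Btg2 were given by locus identifier, and Fos and Egr1 were taken as the locus with a UCSC transcript model and the highest mean count inside a stated mm9 interval, each of which held 1 such locus. The loci were proposed from values of these same libraries, so every statement that a library is high or low at them is a description and carries no test. All 6 were above 0 in all 4 libraries, and all 6 had a mean of 50 or more, the level used below for comparison with other loci.

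Per the labels, the mice were C57BL/6J, 12 weeks old, and tissue came from the zone that would border an infarct, 2 weeks after the sham surgery. There are 4 biological replicates, 1 group and no second condition. The description of replicate 4 speaks of an infarct border without the word sham, while its other labels call it sham. The table heads its columns 3RL, 7LR, 8R and 12RL, names that are in no label, so a library cannot be tied to a replicate number. The labels do not give the sex of the animals, the hour of collection or a batch.

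Immediate early genes are transcribed within minutes of a stimulus from factors already present in the cell, and their mRNAs are short-lived. The FOS proteins cannot pair with each other and bind DNA as dimers with JUN proteins, forming the transcription factor AP-1. ATF3 is a related basic leucine zipper protein induced by many kinds of cell stress, EGR1 is a zinc finger factor induced by growth factors and by stretch, and BTG2 is an antiproliferative cofactor of mRNA deadenylation. In the heart these genes are known for brief induction after pressure load, ischaemia, adrenergic stimulation and handling of the tissue.

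The promoters of Fos, Fosb, Atf3 and Btg2 are shown because these 4 genes share the same library as a far outlier in the values that follow. Each sequence is the 250 bases before the RefSeq start in GRCm38.p6, read 5′ to 3′ on the strand of the gene, at chr12:85473640-85473889 (plus), chr7:19310046-19310295 (minus), chr1:191183334-191183583 (minus) and chr1:134079156-134079405 (minus) in that order. Capitals mark TGACG on either strand, the core of the cyclic AMP response element that ATF and CREB proteins bind. The motifs were chosen after the sequences had been seen.
Fos: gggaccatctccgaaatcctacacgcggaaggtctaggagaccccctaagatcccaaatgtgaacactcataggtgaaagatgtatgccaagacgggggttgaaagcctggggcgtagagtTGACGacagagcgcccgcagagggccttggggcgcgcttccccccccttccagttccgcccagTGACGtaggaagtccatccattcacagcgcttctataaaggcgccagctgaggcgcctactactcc
Fosb: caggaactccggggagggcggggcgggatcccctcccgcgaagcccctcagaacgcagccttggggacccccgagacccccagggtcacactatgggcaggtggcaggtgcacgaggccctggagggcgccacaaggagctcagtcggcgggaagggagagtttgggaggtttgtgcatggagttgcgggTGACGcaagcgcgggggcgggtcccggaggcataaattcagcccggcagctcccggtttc
Atf3: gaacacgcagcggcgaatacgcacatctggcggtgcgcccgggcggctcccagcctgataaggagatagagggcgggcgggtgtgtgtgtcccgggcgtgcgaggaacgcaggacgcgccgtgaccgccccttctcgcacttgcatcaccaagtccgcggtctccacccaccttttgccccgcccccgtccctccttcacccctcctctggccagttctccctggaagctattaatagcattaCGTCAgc
Btg2: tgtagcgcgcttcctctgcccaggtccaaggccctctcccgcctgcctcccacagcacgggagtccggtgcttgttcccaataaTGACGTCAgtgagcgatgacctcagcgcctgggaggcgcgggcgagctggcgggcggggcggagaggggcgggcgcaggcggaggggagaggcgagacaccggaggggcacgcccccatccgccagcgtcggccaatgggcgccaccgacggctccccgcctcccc

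All 4 windows held TGACG, which 17.8% of the 32851 RefSeq promoters hold in the same 250 bases. G and C made up 58.4% (Fos) to 73.2% (Btg2) of these windows, above the median of 52.4% over all promoters. The shares of promoters given here are not matched for this content. In Fos it occurred 129 to 125 and 66 to 62 bases before the start, in Fosb 60 to 56 and in Atf3 7 to 3, there on the opposite strand. In Btg2 the matches on both strands overlapped in the full element TGACGTCA, 166 to 159 bases before the start, which 1.55% of promoters hold. The bases just after this RefSeq start of Btg2 were in no GENCODE M21 transcript of the gene, so its distances are less secure. For Fos, Fosb, Atf3 and Fosl2 at least 1 such transcript held them. The window of Fosl2 had no TGACG. The EGR motif GCGNGGGCG was present in Fosb, Fosl2 and Btg2 and in 4.70% of all promoters. Neither the AP-1 motif TGANTCA (6.75% of promoters) nor the CArG box of serum response factor (1.47%) was found in any of the 5 windows on either strand. Bases farther upstream than 250 were not searched, so sites of either kind there would be missed. TATAAA was found in Fos, 33 to 28 bases before the start, and in 12.4% of promoters. The like-placed letters of Fosb, 30 to 25 bases before the start, were CATAAA, found in 10.8% of promoters. The table held 5 of the 6 genes, and a promoter of Egr1 was not used here. These are matches of letters and say nothing on whether a factor was bound.

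Gene names were obtained from exon structure, because the deposited models carry UCSC identifiers without symbols. A locus took the symbol of the GENCODE M21 gene on the same chromosome and strand that has the same run of intron and internal exon lengths, which needs no conversion of coordinates. All 6 labels held under this check. Atf3 (XLOC_001454) lies at chr1:192992815-193007212 on the minus strand of mm9, with 4 exons. Fosb (XLOC_028836) lies at chr7:19888045-19895394 on the minus strand with 4 exons, and Fos at chr12:86814851-86818219 on the plus strand with 4 exons. Fosl2 (XLOC_023554) lies at chr5:32438907-32461148 on the plus strand, where 2 UCSC models with different first exons share the later exons. Btg2 (XLOC_001187) lies at chr1:135971442-135975732 on the minus strand with 2 exons, and Egr1 at chr18:35020861-35024610 on the plus strand with 2 exons. No other locus of the deposited models overlapped any of the 6, so reads of a partner on the opposite strand do not enter these counts through a listed locus.

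Where 4 values follow each other below without a library's name, they are those of libraries 3RL, 7LR, 8R and 12RL, always in that order. The 4 libraries held between 108345923 and 160670654 reads, recovered from the deposited values, with 29.2% to 32.3% of normalised counts at mitochondrial loci. Markers of heart muscle were abundant in all 4, with 725772 to 812015 normalised read counts for Pln (phospholamban, the inhibitor of the sarcoplasmic calcium pump) and 1177408 to 1640532 for Actc1 (cardiac actin). The locus of Pln spans chr10:52900808-53065787, so its count can include reads on any other models there.

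Library 8R was the highest of the 4 at all 6 genes. Over all 14424 loci with a mean of 50 or more, 8R was highest at 38.6%, a share read here only beside the count because the genes were proposed from these values. 8R was at least 2 times the next library at 5 of 6 genes, against 0.194% of all loci, and the coefficient of variation (CV, the SD over the mean of the 4 libraries) was above 50% at 5 of 6, against 1.38%. At 4 of 6, 8R stood apart by Dixon's 95% criterion, which sets the gap to the nearest library against the whole range, as it did at 1.48% of all loci. Library 3RL was lowest at 5 of the 6 (21.7% of all loci), and 7LR was lowest at Egr1 (29.1%). Second place was less uniform: 7LR followed 8R at Fosb, Fosl2, Atf3 and Btg2, an order found at 8.41% of loci, and 12RL followed it at Fos and Egr1. In bulk tissue, more RNA per cell and more cells of an expressing type cannot be told apart.

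**Figure D1:**
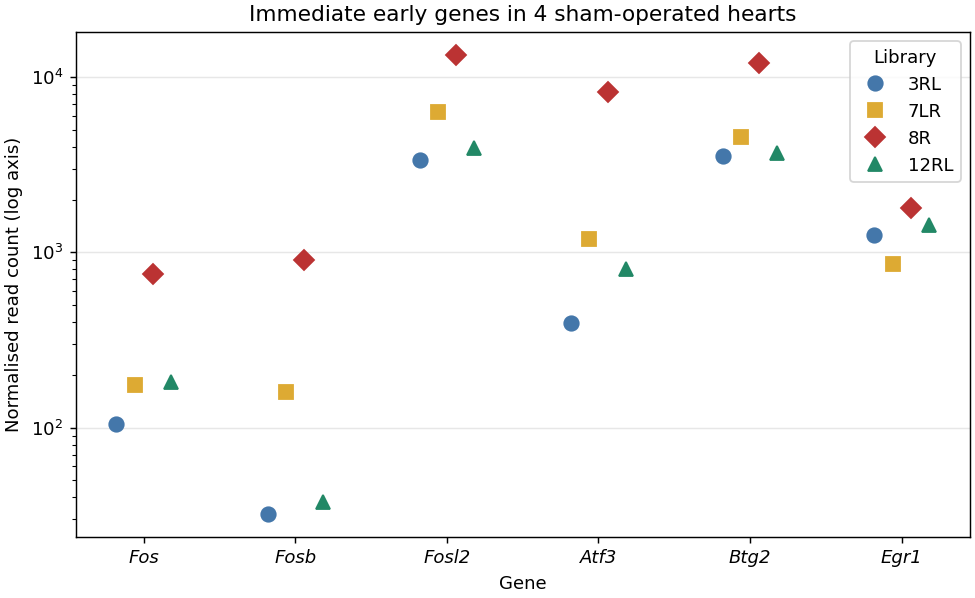
Normalised read counts (vertical log axis) of the 6 genes in each of the 4 sham libraries, 1 point per library with no averaging. 8R (red diamonds) is the highest point at every gene, with the gap to the next library widest at Atf3 (8258 against 1195) and narrowest at Egr1 (1797 against 1436).

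Among the FOS genes, Fosb had the widest range. Its normalised read count was 32.2, 160.6, 899 and 37.8. The level in 8R was 5.60 times that in 7LR and 27.9 times that in 3RL. The 2 low libraries rest on 27 and 24 reads, and their exact 95% Poisson intervals, 21.2 to 46.9 and 24.2 to 56.3 normalised counts, overlap, so they cannot be ordered. These intervals cover counting error only. The interval of 7LR, 135.2 to 189.4, lay above both, so by counting error alone Fosb had 3 separate levels over the 4 libraries.

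Fos, the founding member of the family, had 105, 175, 753 and 183. The value in 8R was 4.11 times the next, and 7LR and 12RL had overlapping counting intervals (148.8 to 205.4 and 151.1 to 219.4). These 2 libraries could thus not be ordered at Fos, while at Fosb 7LR was clear of 12RL. The level of Fosb per kb of exon was below that of Fos in every library, at a ratio of 0.662 in 8R and 0.507 in 7LR. In the libraries with little Fosb, the ratio was 0.115 (12RL) and 0.170 (3RL).

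Fosl2, which encodes the FOS-related protein FRA-2, was the most abundant FOS gene and moved over a narrower range. It had 3384, 6323, 13334 and 3918, so 8R was 2.11 times 7LR and 3.94 times 3RL. As at Fosb, 8R was highest and 7LR second. The counts cannot be divided between the models of Fosl2. An assembled model of this locus ran 936 bases past the UCSC 3′ end.

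Fosl1, which encodes FRA-1, was near the lower limit of detection, with 7.16, 1.14, 10.2 and 4.73 normalised counts in 3RL, 7LR, 8R and 12RL. Divided by exon length, Fosl2 made up between 78.3% (8R) and 89.8% (3RL) of the summed FOS family. Fosb made up 8.54% of the sum in 8R and 3.66% in 7LR, while its share in 3RL was 1.38%. Fos held 7.21% to 12.9%. The FOS sum per kb was 617, 1163, 2788 and 742.

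The JUN genes, which supply the partners of FOS in AP-1, had lower CVs than the FOS genes. Fos, Fosb and Fosl2 were proposed from values of these same libraries, which could itself give them the wider spread. This contrast and the ratio below are descriptions only. Jund had 6393, 7148, 12637 and 9091, with a CV of 31.6%. Junb had 1430, 1115, 1858 and 1181 (CV 24.1%). Jun had 6705, 5893, 7992 and 8396, so here 12RL and not 8R was highest (CV 15.9%). Per kb of UCSC exons, the JUN sum was 6799, 6810, 11200 and 8812, above the FOS sum in each library. The locus of Jund spans chr8:73216993-73225902 but was divided by 1668 bases, and that of Junb spans chr8:87498383-87504884 but by 1732. Reads on any other exons of these loci can raise their level per kb and the JUN sum, and a longer length was not tried. The ratio of the FOS sum to the JUN sum was 0.0908, 0.171, 0.249 and 0.0842. Jun and Jund have 1 exon in these models and were named by length and by their neighbours, a weaker match than an intron chain.

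**Figure D2:**
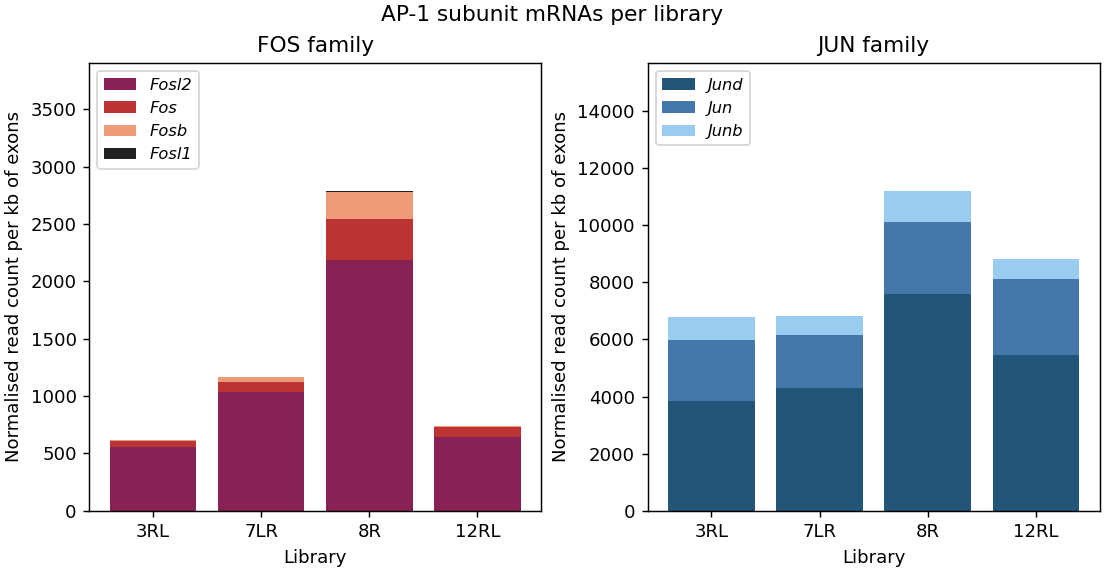
Stacked bars of normalised read count per kb of exons for the FOS genes (left) and the JUN genes (right) in each library, with the vertical axes starting at 0 and differing in scale. The FOS sum runs from 617 in 3RL to 2788 in 8R and is mostly Fosl2, while the JUN sum runs from 6799 to 11200 and is mostly Jund. Lengths are of UCSC exons only, and reads on any other exons of a locus can raise its level.

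Atf3 spanned a 20.9-fold range. Its normalised counts were 395, 1195, 8258 and 807. 8R was 6.91 times the next library, the largest such gap of the 6 genes, and the 3 others were themselves spread 3.02-fold, with counting intervals that did not overlap. The assembled model of Atf3 keeps the 4 exons of the UCSC model and extends 1361 bases past its 3′ end. Per kb of UCSC exons Atf3 was the highest of the 6 genes in 8R (4179, against 3908 for Btg2), but with the extension counted as exon it was 2475 and below Btg2. This other length was chosen after the models had been seen.

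Btg2 was the steadiest gene outside 8R. It had 3527 in 3RL, 4546 in 7LR and 3680 in 12RL, a CV of 14.0%, while 8R had 12048, 2.65 times the next library. Per kb of exon Btg2 was the highest of the 6 genes in 3RL, 7LR and 12RL, with 1144, 1475 and 1194.

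Egr1 differed from the other 5 genes. It had 1258, 855, 1797 and 1436. The counting intervals of 8R and 12RL did not overlap, but the relative gap was the smallest of the 6 genes. The CV was 29.3%, and 7LR was the lowest library, although 7LR was second at 4 of the other genes. Per kb, the level of Atf3 was 0.488 times that of Egr1 in 3RL and 0.874 times in 12RL, but 2.17 times in 7LR and 7.14 times in 8R.

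Averaged over the 4 libraries, the level per kb of UCSC exons was 1930 ± 1327 for Btg2, 1348 ± 1895 for Atf3, 1104 ± 750 for Fosl2, 435 ± 127 for Egr1, 145 ± 144 for Fos and 74.8 ± 110 for Fosb (SD, n = 4 for each). Neighbours in this order lay within 1 SD of each other except Egr1 and Fos, whose means differed by more than either SD. Within libraries it was more regular. Fos was above Fosb and below the other 4 genes in all 4 libraries, and Btg2, Fosl2, Egr1, Atf3 was the order above them in both 3RL and 12RL. In 7LR Atf3 had passed Egr1, and in 8R it had passed Fosl2 as well, also with the longer Atf3 model.

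On the log2(count + 1) scale, 8R lay above the mean of the other 3 libraries by 3.92 for Fosb, 3.51 for Atf3, 2.32 for Fos, 1.63 for Btg2, 1.61 for Fosl2 and 0.64 for Egr1. The median over the 6 was 1.97, beside 0.06 over all 14424 loci. The median SD of the 6 over the 4 libraries was 1.05, beside 0.15 for all loci. Without 8R the median SD of the 6 was 0.46 beside 0.13, so the spread was smaller in the other 3 libraries.

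The libraries carry a trend with transcript length, in which 8R differs from the rest. 8R lay above the others by a median of 0.26 at loci with a spliced UCSC model of up to 1 kb (885 loci) and below them above 8 kb (median -0.24, 368 loci). The spliced models of the 6 genes are 1976 to 5833 bases long. The median was 0.17 from 1 to 2 kb, 0.07 from 2 to 4 kb and -0.07 from 4 to 8 kb. Among loci at most 25% longer or 20% shorter than a gene and within 2 times its mean, the median difference of 8R was 0.14 for 936 loci like Atf3 and -0.05 for 466 like Fosb. It was -0.08 for 667 loci like Fosl2, 0.08 for 1284 like Btg2, 0.02 for 528 like Fos and 0.03 for 1190 like Egr1. None of these like loci reached the value of Atf3, Fosb, Fosl2 or Fos, 1 (Nr4a3) reached that of Btg2, and 11 reached that of Egr1. The 6 genes were proposed from these same values, so their place above the like loci is a description only. With the trend removed, 8R was highest at all 6, and the median difference was 1.95.

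**Figure D3:**
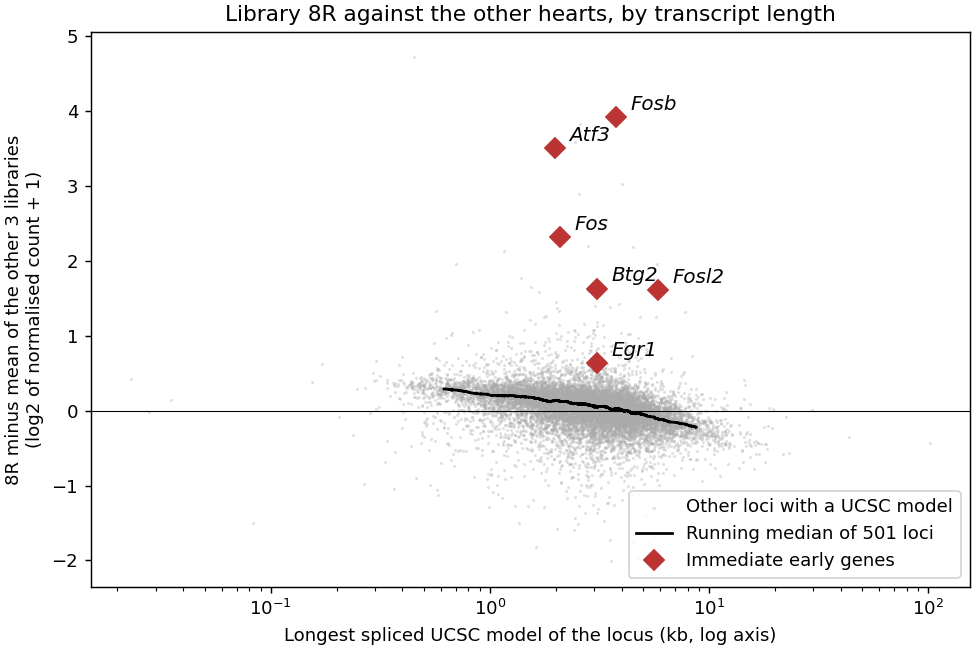
Difference of 8R from the mean of the other 3 libraries on the log2(count + 1) scale (vertical) against the longest spliced UCSC model (horizontal log axis) for loci with a mean of 50 or more. Grey points are other loci, the line is a running median, and the red diamonds are the 6 genes, which lie between 0.64 (Egr1) and 3.92 (Fosb) above 0.

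The nearest locus on either side of each of the 6 genes with a UCSC model and a mean of 50 or more gave 12 flanking loci. 8R was highest at 8 of the 12, beside 38.6% of all loci, and at least 2 times the next library at 0 of 12, beside 0.194%. By Dixon's criterion 8R stood apart at 3 of the 12 (Ercc1, Tmed10 and Etf1), beside 1.48%. The CV of the 12 ran from 3.46% to 34.6% with a median of 10.4%, beside 10.6% over all loci. Rtn2, 7 kb from Fosb, had 9370, 9151, 9515 and 9930. Ercc1 on the other side of Fosb had 2888, 2791, 3536 and 2879. Etf1, beside Egr1, had 18960, 18548, 22396 and 19056. The flanking loci farthest up in 8R were Fmod beside Btg2, with a difference of 0.82, and Jdp2 beside Fos, with 0.79. Jdp2 encodes a basic leucine zipper protein that binds JUN.

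**Figure D4:**
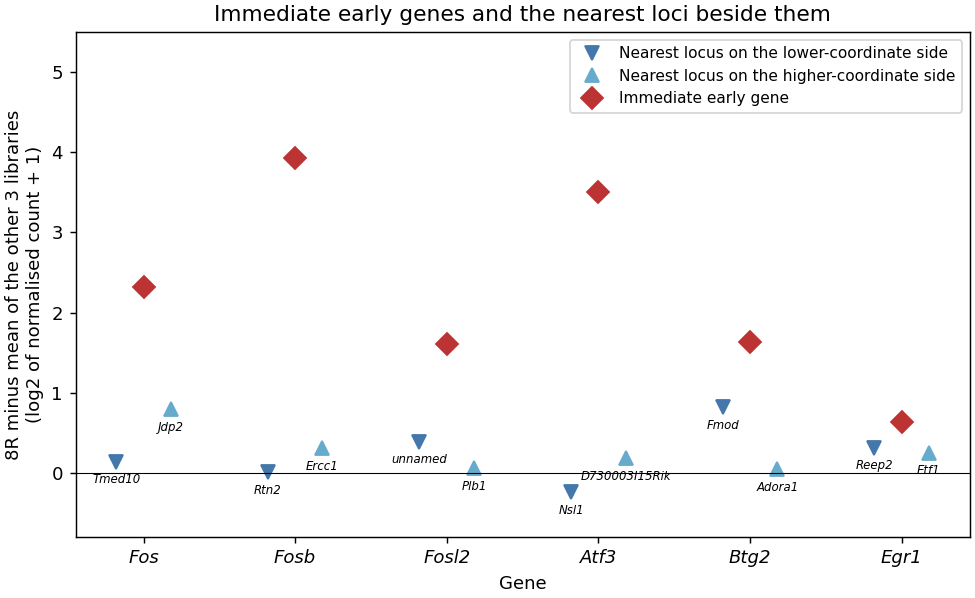
Difference of 8R from the mean of the other 3 libraries on the log2(count + 1) scale for each of the 6 genes (red diamonds) and the nearest expressed locus on each side (blue triangles). The triangles lie between -0.25 (Nsl1) and 0.82 (Fmod), each below the gene it flanks.

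Other genes of the AP-1, EGR and immediate early groups were examined by lists of 59 symbols, of which 48 could be named and 44 had a mean of 50 or more. 8R was highest at 30 of the 44, beside 38.6% of all loci. The median difference of 8R from the others was 0.50 beside 0.06 for all loci. 3RL was lowest at 22 of 44, beside 21.7% of all loci.

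Of 7 detected AP-1 relatives and partners, 8R was highest at 5, beside 38.6% of all loci. Their median difference was 0.76, beside 0.06 over all loci. Maff, a small MAF protein gene, had 750, 1239, 2182 and 809, a difference of 1.26 and the largest of the list. Mafk had 4919, 6332, 9512 and 5501. Jdp2 had 1533, 1974, 2789 and 1386. Atf2, a JUN partner that is mainly controlled by phosphorylation, had 5007, 5463, 5320 and 5495 and a CV of 4.18%. All 7 were above the mean of the others in 8R with the authors' scaling, Atf2 by only 0.0009, and 6 with each of the 3 other scalings tried. The share of all loci above it was not counted. The median difference over all loci was 0.06 with the authors' scaling, 0.02 with TMM, -0.07 with equal table totals and 0.03 with the median of ratios.

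Of the EGR genes, Egr2 was low and had 59.7, 41.0, 98.9 and 41.0. Nab2, a corepressor of EGR proteins and itself an EGR1 target, had 1348, 1294, 2407 and 962, which is 1.79 times the next library in 8R. Nab1 had 3309, 3642, 3681 and 2643. 8R was highest at these 3 of 3, beside 38.6% of all loci. It was highest at 2 of 3 with each of the other scalings, beside 16.5% to 34.1% of all loci.

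Of 19 other immediate early genes, 8R was highest at 18, beside 38.6% of all loci. With equal table totals it was highest at 14, beside 16.5%. The median difference was 0.61. Without Nr4a1, Nr4a2, Nr4a3 and Sik1 it was 0.53, with 8R highest at 14 of 15. The orphan receptor gene Nr4a1 had 1135, 6521, 24356 and 1116, and its relative Nr4a3 had 1292, 1860, 12477 and 1949. Most of the others had smaller gaps. Klf4 had 4497, 7948, 10072 and 4681, Gadd45b 531, 983, 1352 and 607, and Zfp36, which encodes an mRNA-destabilising protein, 2504, 4394, 5868 and 2947. Dusp1, the phosphatase gene that limits MAP kinase signalling, had 4666, 6983, 8382 and 5985. In 15 of the 19, 8R was highest and 7LR second, an order found at 8.41% of all loci. Ccn1 had the lowest CV of the 19, 9.79%, and Btg1, a relative of Btg2, was highest in 3RL with 3705 and had 2500 in 8R.

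The kinases and factors upstream of these genes had CVs of at most 24.5% (Elk3). Of 9 detected, 8R was highest at 2, beside 38.6% of all loci, and 12RL at 5, for which the share of all loci was not counted. The median difference of 8R was 0.01, or -0.12 with equal table totals, beside 0.06 and -0.07 over all loci. The JUN kinase gene Mapk9 had a CV of 3.87%. Srf had 14860, 12576, 17539 and 15935. Crem had 1479, 1570, 1887 and 1307. These are mRNA levels, and the activity of the kinases was not measured.

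Genes of the integrated stress response, in which Atf3 also takes part downstream of ATF4, had no common order of libraries. Of 6 detected, 8R was highest at 2, beside 38.6% of all loci, and 3RL at 3, for which the share of all loci was not counted. The median difference of 8R was 0.18. Ddit3 (CHOP) had 2113, 1613, 2019 and 2004, and Trib3 was lowest in 8R with 316 against 476, 444 and 389. Chac1 had 679, 1257, 1168 and 695. Ddit4, an inhibitor of mTORC1 signalling, had its libraries in the same order as Fosl2, with 2637, 9354, 14706 and 4727.

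**Figure D5:**
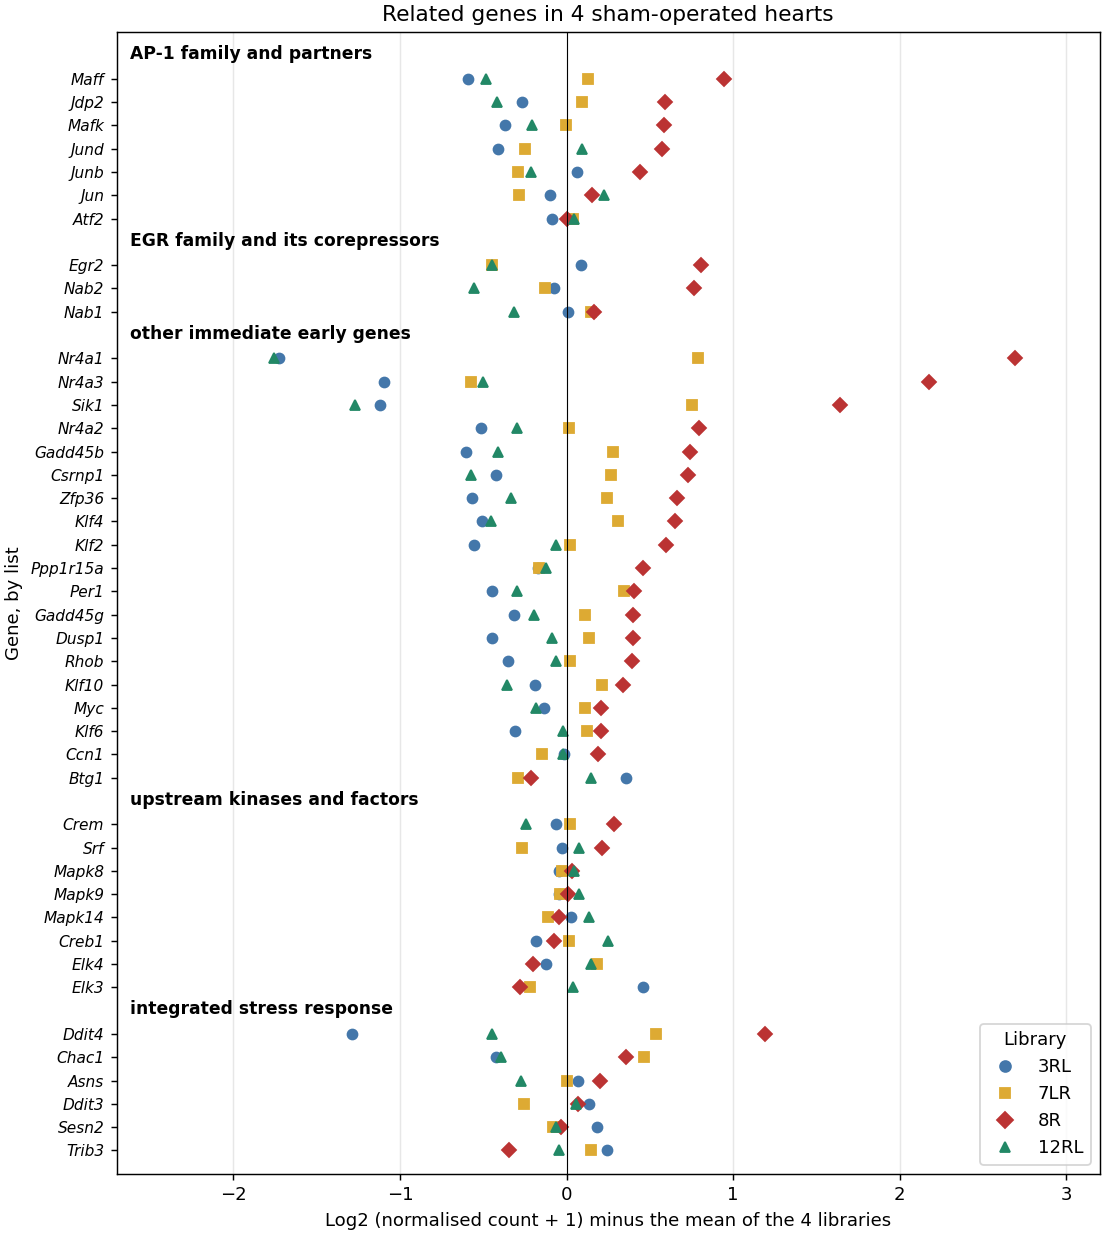
Each point is 1 library's log2(normalised count + 1) minus the mean of the 4 libraries (horizontal) for related genes (vertical), grouped by list and ordered by the difference of 8R. 8R (red diamonds) is the rightmost point for 18 of 19 other immediate early genes, beside 38.6% of all loci. Among the upstream kinases and factors shown it is rightmost for Srf and Crem alone.

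Over 27 cell type markers with a mean of 50 or more, 8R was highest at 10, near the share of 38.6% of all loci. The median difference was 0.01, beside 0.06 over all loci. The 5 endothelial markers (Pecam1, Cdh5, Kdr, Tek, Tie1) were all highest in 3RL, with a summed count of 143921 there and 106497 to 113911 in the others. The shares of all loci highest in 3RL or 12RL were not counted, so counts for these libraries here have no background. The 8 fibroblast and scar markers summed to 179352, 141831, 162013 and 120050. They did not move together: 4 were highest in 3RL, 3 in 8R and 1, Pdgfra, in 12RL. The 4 macrophage and leukocyte markers that could be named summed to 10810, 8767, 9513 and 8033. Of these, 2 were highest in 3RL, Cd14 in 8R and Ptprc in 12RL. Both neutrophil markers with a mean of 50 or more, S100a9 and Csf3r, were highest in 12RL, while S100a8 and Il1b were under that mean, Il1b with its highest count in 8R (70.5). 4 of the 5 named cardiomyocyte markers were highest in 8R, with a median difference of 0.26 over the list. The other, Ryr2, was lowest in 8R, with 294346 there against 316127 (3RL), 423410 (7LR) and 473182 (12RL). Alas2, the only red cell gene that could be named, had 2441, 4086, 5506 and 3317, with 3RL lowest, 8R highest and 7LR second, as at 4 of the 6 genes. Of 4 atrial markers, Nppa had 15578 to 18866 and Sln 0 to 6.31, while both light chain genes were highest in 12RL. Myl4 had 460 there against 173 to 184 in the others, and Myl7, with a mean under 50, had 118 against 2.27 to 12.5. The part of cell content in the levels of the 6 genes was not tested.

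By distance of centred log2 profiles over the 4 libraries, the 5 loci most like the mean profile of the 6 genes were found among 13251 loci with a UCSC model. The nearest, at a distance of 0.31, was an unnamed locus at chr2:19574413-19582933 with 1788, 3791, 10140 and 2647. Thbs1, the gene of the matrix protein thrombospondin 1, followed at 0.43 with 833, 2020, 4762 and 1085. The next 2 were unnamed loci at chr17:35106304-35109101 (0.43) and chr17:28660226-28662268 (0.61). Gdf15, a secreted stress-responsive cytokine gene, came last of the 5 at 0.65 with 128, 244, 498 and 126. Of the 6 genes themselves, Fos lay closest to their mean profile (0.39), while Egr1 (1.79) and Fosb (1.88) lay farthest from it. With 4 libraries, such likeness is a description only.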

How the data were processed

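Poly(A)-selected long RNA was sequenced as paired reads of 100 bases on an Illumina HiSeq2000, per the labels' protocols. The authors deposited a table of signal values, which are read counts per locus divided by 1 size factor per library, and transcript models on mm9 (other values: exon positions). DESeq, HTSeq 0.5.4p2, Cufflinks 2.0.2 and TopHat2 2.0.5 are named per the submitters' processing notes; how HTSeq treated strand: not given in the sources used here. In each library 100% of values were whole multiples of 1 step (within 0.01 of a read), so whole reads were recovered. Depths were 140554089 (3RL), 142524825 (7LR), 160670654 (8R) and 108345923 (12RL) reads.

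Loci were named against GENCODE M21: 18073 of 26078 loci with a UCSC model by intron chain, and 401 single-exon loci by length within 25% and by their neighbours. A further 683 loci held chains of more than 1 gene and were not named. The genes named are the 6 members, the genes of the lists, the flanking loci and the 5 nearest profiles; 1 listed gene is counted but not reported here by name or drawn. Members and lists were chosen with earlier results of these data known, and there is 1 group, so no test was made. Levels used log2(count + 1) for differences and counts per kb of UCSC exons between genes, which assumes even coverage. Alternatives were other pseudocounts, minimum means, scalings (TMM in edgeR 4.0.16), exon lengths, removal of the length trend and leaving out libraries. Steps were tested on simulated data. Python 3.11.15, numpy 2.4.6 and pandas 2.3.3 were used.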

Additional observations from a re-analysis of the deposited data

Results flagged for a closer look

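Genes are listed here where 1 of the 4 libraries lay far from the other 3, measured by its gap to the nearest value over the whole range. Of 93 named genes and loci checked, 14 met this. The 93 include the 6 immediate early genes and the 5 nearest profiles, all chosen from the same values, and among the other 82, 9 met it. The same criterion was met by 663 of all 14424 loci, and chance alone gives about 1 in 20 groups. 4 of the 6 immediate early genes are among them, beside 1.48% of all 14424 loci at which 8R stood apart upward. Atf3 had 8258 normalised counts in 8R, with the next library at 1195. Fosb had 899 in 8R and 161 in the next, Btg2 had 12048 and 4546, and Fos had 753 and 183.

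Of the list genes, Ppp1r15a had 5176 in 8R with the next at 3451, and Nr4a3 had 12477 with the next at 1949. Sesn2 had 734 in 3RL and 632 in the next library. The unnamed locus at chr17:35106304-35109101, near the 6 genes in profile, had 1423 in 8R and 382 in the next. Among flanking loci 8R stood apart at Ercc1 with 3536 against 2888, at Tmed10 with 23811 against 21815 and at Etf1 with 22396 against 19056, gaps of a much smaller relative size. Among markers, 3RL stood apart at the endothelial genes Pecam1 (27875, next 22705) and Tie1 (23051, next 19184), and 12RL at the atrial light chain gene Myl4 (460, next 184).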

How the results depend on the processing

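8R was highest at all 6 genes in the 7 alternatives that could be run (TMM, equal table totals, median of ratios, length trend removed, and without 3RL, 7LR or 12RL). Leaving out 3RL, 7LR or 12RL could not have changed this, because 8R was already the highest library. The scalings moved 8R only a little, which makes them a weak check of this count. Over 9 alternatives, which add pseudocounts of 10 and 0.1, the median difference of 8R ran from 1.81 to 2.15, that of Atf3 from 3.07 to 3.87, of Fosb from 3.51 to 4.65 and of Egr1 from 0.42 to 0.79. The median SD of the 6 genes ran from 0.46 to 1.27 when 1 library was left out, and the lowest was without 8R. The share of all loci highest in 8R, 38.6%, was 32.3% with TMM, 16.5% with equal table totals, 34.1% with the median of ratios, 26.6% with the length trend removed, 34.3% and 41.9% at minimum means of 10 and 200, and 42.4% to 49.9% with another library left out, where fewer libraries compete. Equal totals moved 8R against the others by -0.13 (log2) over all loci. List genes highest in 8R numbered 25 to 34 of 44. Differences of 8R could not be computed without 8R. No paired analysis was possible because all 4 libraries are sham. The Fosb values of 3RL and 12RL rest on 27 and 24 reads, which limits their precision.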

Other observations

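Some related genes were under the minimum mean of 50. Batf and Batf3, lymphoid AP-1 partners, were highest in 3RL, with 58.5 and 64.5 normalised counts there and 39.8 and 43.2 in 8R. Egr4 had 0 to 1.19 in the 4 libraries.

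An assembled locus without a UCSC model or a stated strand lies 958 bases from Egr1, at chr18:35018326-35019903. Its counts were 10.7 (3RL), 15.9 (7LR), 18.2 (8R) and 22.1 (12RL), so that 12RL and not 8R was highest. A similar locus 1080 bases past Fosl2, at chr5:32462228-32463463, had 0 to 4.56.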
